A study of Homo sapiens with 72 samples.

Results

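The comparison described here set the lncRNA genes of MCF10A-M2 (M2) cells against those of MCF10A-M1 (M1) cells after both had been kept for 24 h with SB431542, a small-molecule inhibitor of the TGF-β type I receptor kinase. It used 6 of the 72 libraries of the series, 3 of each line, and 21857 of the 96411 genes in the deposited table, namely those with at least 0.5 TPM (transcripts scaled to a fixed library total) in at least 3 of the 48 M1 and M2 libraries. M1 is MCF10A, a non-malignant human breast epithelial line, and M2 is MCF10A transformed with HA-Ras, per the labels. Both lines were held overnight without serum and then given SB431542 at 10 µM, so the inhibitor and the serum withdrawal were common to the groups compared and no vehicle library entered the 24 h comparison. The other conditions of the 2 lines used below were the earliest SB431542 libraries (given as 0 h by their titles and as 0.5 h by their treatment label), 2 h and 8 h of SB431542, non-stimulated cells, and 2, 8 and 24 h of TGF-β at 5 ng/mL. Whether M2 is a clone or a pool of transformed cells is not given in the sources used here, and the labels do not say that a transformed control line was carried along.

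TGF-β ligands bring a type II and a type I receptor kinase together, and the type I kinase then phosphorylates SMAD2 and SMAD3, which enter the nucleus with SMAD4 and act on transcription. SB431542 binds the type I kinase and blocks this step, so it also blocks signalling by TGF-β that the cells make themselves. Oncogenic Ras drives the MAP kinase and PI3 kinase pathways and is known to change how epithelial cells answer TGF-β. Long non-coding RNAs (lncRNAs) are transcripts that code for no known protein, and some of them act in the regulation of other genes while many have no known role.

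The question was which line differences were present under the inhibitor of the receptor kinase. All features carried NONCODE gene identifiers, which the files do not pair with gene symbols, and 0 of them matched the RefSeq or GENCODE tables used. Neither epithelial markers nor HRAS could therefore be looked up to check the labels, and no role can be given for a gene. Target genes of TGF-β could not be looked up either, so inhibition of the receptor at 24 h was not checked. By a fixed rule 2 identifiers per direction are printed, and other genes are described by rank.

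The M1 and M2 libraries at 24 h of SB431542 were separate from each other and tight within a line. Across the 21857 genes the log2 levels of 2 M1 libraries correlated at 0.959 to 0.961, those of 2 M2 libraries at 0.971 to 0.974, and those of an M1 and an M2 library at 0.889 to 0.904; these values are across genes, which are not independent replicates. The M1 libraries held 15653, 15553 and 15786 genes at 0.5 TPM or more, and the M2 libraries held 9261, 9342 and 9326. Every M2 library was below every M1 library, with means of 15664 ± 117 in M1 and 9310 ± 42.9 in M2 (SD, n = 3), a difference of -6354.3 genes (exact permutation test, two-sided, p = 0.1, the smallest p that 3 against 3 allows). At the earliest SB431542 libraries the means were 15537 ± 207 in M1 and 13123 ± 1024 in M2 (SD, n = 3), so the mean of M1 at 24 h lay within its earliest range, 15412 to 15776, and M2 at 24 h lay below all its earliest libraries, which held 12430 to 14299.

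A few very abundant genes held most of each library, and TPM are scaled to a common total. The most abundant gene took 29.6%, 26.8% and 28.0% of all TPM in the M1 libraries and 32.9%, 35.4% and 36.1% in the M2 libraries. The 10 most abundant genes together took 66.1 ± 0.761% in M1 and 71.3 ± 3.30% in M2 (SD, n = 3). A gain in these genes lowers the TPM of all others, so the main counts below are given as deposited and after median-of-ratios rescaling, which sets the typical gene of 10514 that were above 0 in all 48 libraries to a common level. Counts of shared, turned and grouped genes use calls under both scalings, and those of genes at 0 or varying within a line use deposited values. That rescaling differed between the lines: its log2 factor was 0.39 ± 0.014 in M1 and -0.85 ± 0.077 in M2 (SD, n = 3). TPM keep no depth, so how far depth differed between the lines, and its part in the counts of low genes, was not tested. In RNA from whole cultures, fewer cells of a kind and less RNA per cell cannot be told apart.

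After 24 h of SB431542, more lncRNA genes were called lower in M2 than higher under each scaling. The margin depended on the scaling. On the deposited TPM, 672 genes (3.07% of those tested) were called higher in M2 and 11237 (51.4%) lower, by limma on log2(TPM + 0.5) with a Benjamini-Hochberg adjusted p under 0.05. After rescaling, 3333 genes (15.2%) were higher and 5006 (22.9%) lower, so the share of calls that were higher moved from 5.64% to 39.97%. With quantile normalization, which gives all libraries the same distribution, the counts were nearly equal, at 3012 higher and 3274 lower. The median difference of all genes, M2 minus M1, was -0.78 on the log2 scale as deposited and -0.24 after rescaling. Both scalings together left 672 higher (3.07%) and 5006 lower genes (22.9%). Because the rescaling shifted the M2 values upward, a gene called higher on the deposited TPM stayed higher after it, and a gene called lower after it had been lower before, so the first scaling decided the higher calls and the second the lower calls. The remaining lower calls did not share one fate: 5534 genes that were lower as deposited were not called after rescaling, and 697 were then called higher.

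The counts that held under every scaling tried were smaller. With 2 further scalings, one whose total omits the 10 most abundant genes and the other quantile normalization, 661 genes (3.02%) were higher in M2 and 2603 (11.9%) were lower under all 4. The called differences were larger in size on the lower side. Among the 672 higher genes the median difference was 1.14 on the deposited log2 scale, with 403 genes at 1 or more, 112 at 2 or more and 33 at 3 or more. Among the 5006 lower genes the median size was 1.82, with 4625 genes at 1 or more, 1848 at 2 or more and 184 at 3 or more. After rescaling this order turned, with a median size of 2.15 for the higher genes and 1.14 for the lower ones.

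**Figure D1:**
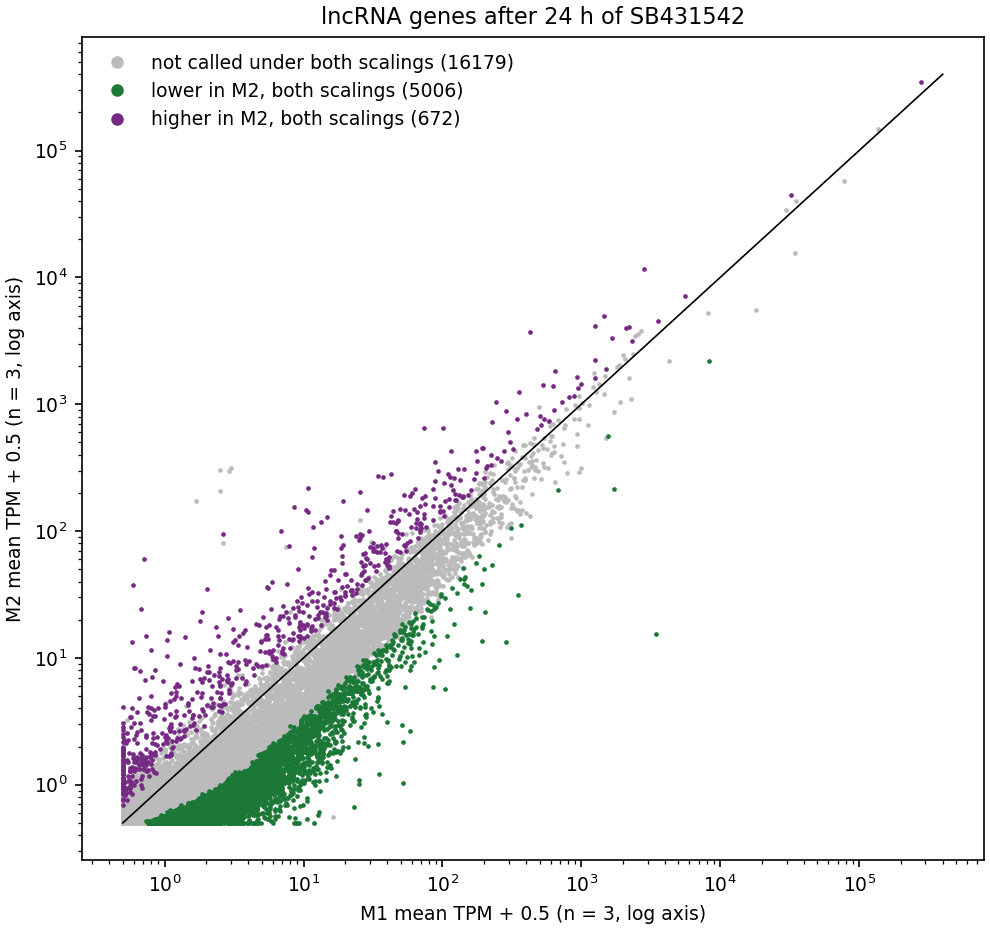
Mean TPM + 0.5 of each of the 21857 tested genes in the 3 M2 libraries (y axis) against the 3 M1 libraries (x axis) at 24 h of SB431542, both on log axes, with the line of equal level; purple points are the 672 genes called higher in M2 under both scalings, green points the 5006 called lower and grey points the other 16179. Most points lie below the line at low and middle levels, and the purple points reach up to the most abundant gene at the upper right.

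The line difference followed the level of the gene. Genes were divided by their mean over the 6 libraries into 11700 under 1 TPM, 6887 from 1 to 10, 2763 from 10 to 100 and 507 of 100 TPM and over, with classes and differences taken from the same libraries. As deposited, the median difference was -0.60, -1.41, -0.67 and -0.18 on the log2 scale in these classes. After rescaling it was -0.30, -0.49, 0.53 and 1.06, so the typical abundant gene was then higher in M2 and the typical low gene lower. With quantile normalization the class medians were 0.03, -0.20, -0.05 and -0.03: that method sets the levels of each rank equal, which removes such a pattern by its construction.

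The calls that held under all 4 scalings also differed by level. Of the genes at 100 TPM and over, 94 (18.5%) were higher in M2 and 17 (3.35%) lower. The direction of this class depended on the scaling: 105 were higher and 196 lower as deposited, and 404 and 17 after rescaling. Of those from 1 to 10 TPM, 211 (3.06%) were higher and 1632 (23.7%) lower, and of those under 1 TPM, 142 (1.21%) were higher and 619 (5.29%) lower. Between 10 and 100 TPM the counts were 214 (7.75%) and 335 (12.1%). The share of the library each class took also differed between the lines. Shares add up to a fixed total, so a gain in any class goes with a loss elsewhere. The 10 most abundant genes alone took 66.1% of the TPM in M1 and 71.3% in M2, so the shares do not describe the typical gene of a class. Genes of 100 TPM and over took 85.5 ± 0.113% of the TPM in M1 and 91.2 ± 0.717% in M2, genes from 10 to 100 took 10.5 ± 0.105% and 7.37 ± 0.646%, and genes from 1 to 10 took 3.19 ± 0.0235% and 1.25 ± 0.068% (SD, n = 3). In each class the 3 libraries of one line lay beyond the 3 of the other (exact permutation test, two-sided, p = 0.1, the smallest possible). At the earliest SB431542 libraries the rescaled medians of the same classes were -0.17, -0.22, 0.23 and 0.40, in the same order and smaller.

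**Figure D2:**
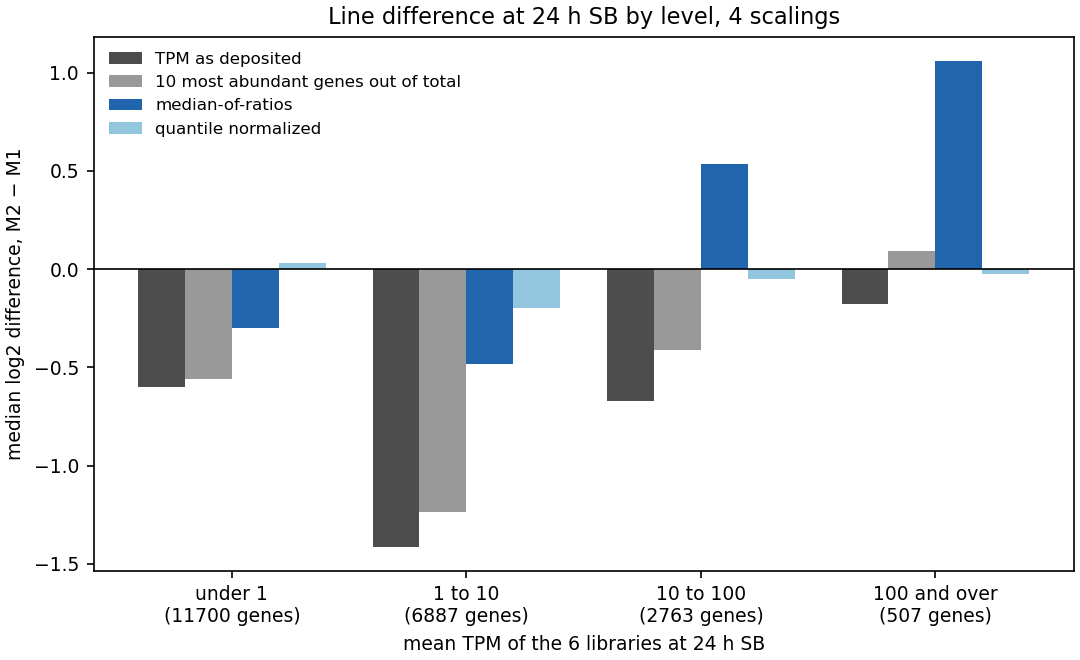
Median log2 difference, M2 minus M1, at 24 h of SB431542 (y axis) in 4 classes of mean TPM over the 6 libraries (x axis, with the number of genes in each), with 1 bar for each of 4 scalings. Bars for the deposited TPM are negative in all classes, from -0.18 to -1.41; median-of-ratios bars pass from -0.30 to 1.06, and quantile-normalized bars stay near 0.

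Among the 60 most abundant genes at 24 h of SB431542, 23 were called higher in M2 and 15 lower as deposited, and 45 and 4 after rescaling. Under both scalings 23 and 4 held. For all tested genes the shares were 3.07% higher and 51.4% lower as deposited, 15.2% and 22.9% after rescaling, and 3.07% and 22.9% under both. The most abundant gene had a mean of 281210 ± 14093 TPM in M1 and 347930 ± 16935 in M2 (SD, n = 3), a difference of 0.31 on the log2 scale as deposited (limma adjusted p = 0.011) and 1.55 after rescaling. The gene of rank 9 had 2798, 3004 and 2742 TPM in M1 and 11897, 12249 and 11020 in M2. Its M2 libraries were all above its M1 libraries, and the difference of 2.04 on the log2 scale (limma adjusted p = 3.05e-15) was 3.28 after rescaling. The gene of rank 12 went the other way, with 8577, 8021 and 8432 TPM in M1 and 2745, 1728 and 2123 in M2, a difference of -1.95 (limma adjusted p = 7.44e-14) that was -0.71 after rescaling (limma adjusted p = 3.43e-05).

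Abundance did not always come with stable values. The gene of rank 6 had 9501, 39950 and 39284 TPM in M1 and 48877, 0.597 and 52200 in M2, so 1 M2 library lacked nearly all of it, and it was not called (limma adjusted p = 0.431). Among genes with a mean of 10 TPM or more in a line, 13 of 3828 in M1 and 21 of 2703 in M2 varied more than 10-fold between the 3 libraries.

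By the naming rule, a gene had to be called at 24 h under both scalings, with the 3 M2 libraries all beyond the 3 M1 libraries and a mean of at least 5 TPM in the higher line. The rule left 414 genes higher in M2 and 1273 lower, and those of largest difference and of largest change since the earliest SB431542 libraries with a turned direction are named. As the 24 h values chose these genes, contrasts that include those values, and their p-values, are descriptions. For all tested genes, non-overlap of the lines was common: as deposited, 923 genes (4.22%) had all 3 M2 libraries above M1 and 12924 (59.1%) had all 3 below, and after rescaling the shares were 18.2% and 29.9%.

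NONHSAG112829.1 had the largest difference of the genes higher in M2. Its M1 libraries had 0.149, 0.365 and 0.122 TPM and its M2 libraries 64.9, 60.3 and 54.9 at 24 h of SB431542. It was close to absent from M1 and of middle abundance in M2, with no overlap. The difference was 6.42 on the log2(TPM + 0.5) scale (SE 0.44, limma adjusted p = 9.4e-15) and 7.37 after rescaling. At the earliest SB431542 libraries it had 0, 0 and 0.0891 TPM in M1 and 2.69, 1.49 and 4.93 in M2, a difference of 2.62 (limma adjusted p = 3.61e-05). The line difference therefore grew, by 3.80 (SE 0.62, limma adjusted p = 2.13e-05), a change that includes the 24 h values the gene was picked by. M2 was higher by 4.21 at 24 h than at the start (limma adjusted p = 9.28e-10). The corresponding M1 difference was 0.42 (limma adjusted p = 0.717). The M2 level was still 1.48 ± 0.755 TPM at 2 h and 2.02 ± 0.825 at 8 h (SD, n = 3). The same gene was at 144 ± 11.7 TPM in M2 and 0.821 ± 0.516 in M1 after 24 h of TGF-β, a difference of 6.86, which was not called different from that under SB431542 (interaction -0.44, SE 0.62, limma adjusted p = 0.876). It was thus high in M2 at 24 h under the ligand and under the inhibitor. In non-stimulated cells it had 0.510 ± 0.569 TPM in M1 and 0.951 ± 0.365 in M2 and was not called (limma adjusted p = 0.315).

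NONHSAG058141.1 was higher in M2 at 24 h and had been lower there at the start. At the earliest SB431542 libraries it had 5.83, 5.12 and 4.27 TPM in M1 and 0, 0.512 and 1.23 in M2. At 24 h it had 0, 0.518 and 0 in M1 and 31.5, 25.1 and 14.3 in M2. The lines did not overlap at either time, and their order was opposite. The difference moved from -2.53 (limma adjusted p = 3.26e-05) to 5.18 (SE 0.42, limma adjusted p = 1.23e-12; 6.08 after rescaling), a change of 7.71 (SE 0.59). Both lines took part: M1 fell by 3.13 and M2 rose by 4.59 on the log2 scale. The intermediate times lay between, with differences of -1.56 at 2 h (limma adjusted p = 0.00341) and -0.08 at 8 h (limma adjusted p = 0.902). After 24 h of TGF-β it was also higher in M2, at 3.32 ± 0.279 TPM against 0.360 ± 0.346 (SD, n = 3), a difference of 2.24 that was smaller than under the inhibitor by 2.94 (SE 0.59, limma adjusted p = 0.00185). MDA-MB-231, an invasive breast cancer line of the same series, listed this gene at 0 in all 24 of its libraries.

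NONHSAG014890.2 had the largest difference of the genes lower in M2, and its levels fell into separate ranges. Its M1 libraries had 3507, 2856 and 4012 TPM and its M2 libraries 18.8, 11.4 and 14.8 at 24 h of SB431542, a difference of -7.81 (SE 2.04, limma adjusted p = 0.00151) and of -6.60 after rescaling (limma adjusted p = 0.0112). The lines did not overlap at this time. The gene with the next identifier number is that of rank 6 above, which had 0.597 TPM in 1 M2 library. The gene with the number before, of rank 17, was higher in M2 (0.89 as deposited). The genomic order of these genes was not established, and whether they share reads was not tested. Over all conditions, 20 of the 24 M1 libraries had 874 to 6192 TPM and the other 4 had 4.94 to 9.40. In M2, 23 of the 24 libraries had 3.77 to 22.3 TPM and 1, a non-stimulated library, had 658. One of the low M1 libraries was at the earliest SB431542 time (1480, 4932 and 9.40 TPM), where the lines were not called different (limma adjusted p = 0.0609). In MDA-MB-231 at 24 h of SB431542 the values were 8.60, 12.1 and 2787 TPM, so low and high libraries within one group were seen there too.

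NONHSAG105800.1 was lower in M2 at 24 h after having been higher there. It had 3.74, 1.20 and 0.915 TPM in M1 and 5.15, 6.16 and 5.86 in M2 at the earliest SB431542 libraries, and 8.19, 6.66 and 4.69 in M1 and 0.144, 0.659 and 0.759 in M2 at 24 h. The lines stood apart at both times in opposite order. The difference moved from 1.52 (limma adjusted p = 0.0125) to -2.81 (SE 0.44, limma adjusted p = 1.44e-06; -2.0 after rescaling), a change of -4.33 (SE 0.62). M1 rose by 1.66 (limma adjusted p = 0.019) and M2 fell by 2.66 (limma adjusted p = 7.66e-06). In non-stimulated cells no difference was called (0.14, limma adjusted p = 0.863). After 24 h of TGF-β it was also lower in M2 (-1.72, limma adjusted p = 0.00133), and this was not called different from the inhibitor (interaction -1.09, limma adjusted p = 0.542).

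**Figure D3:**
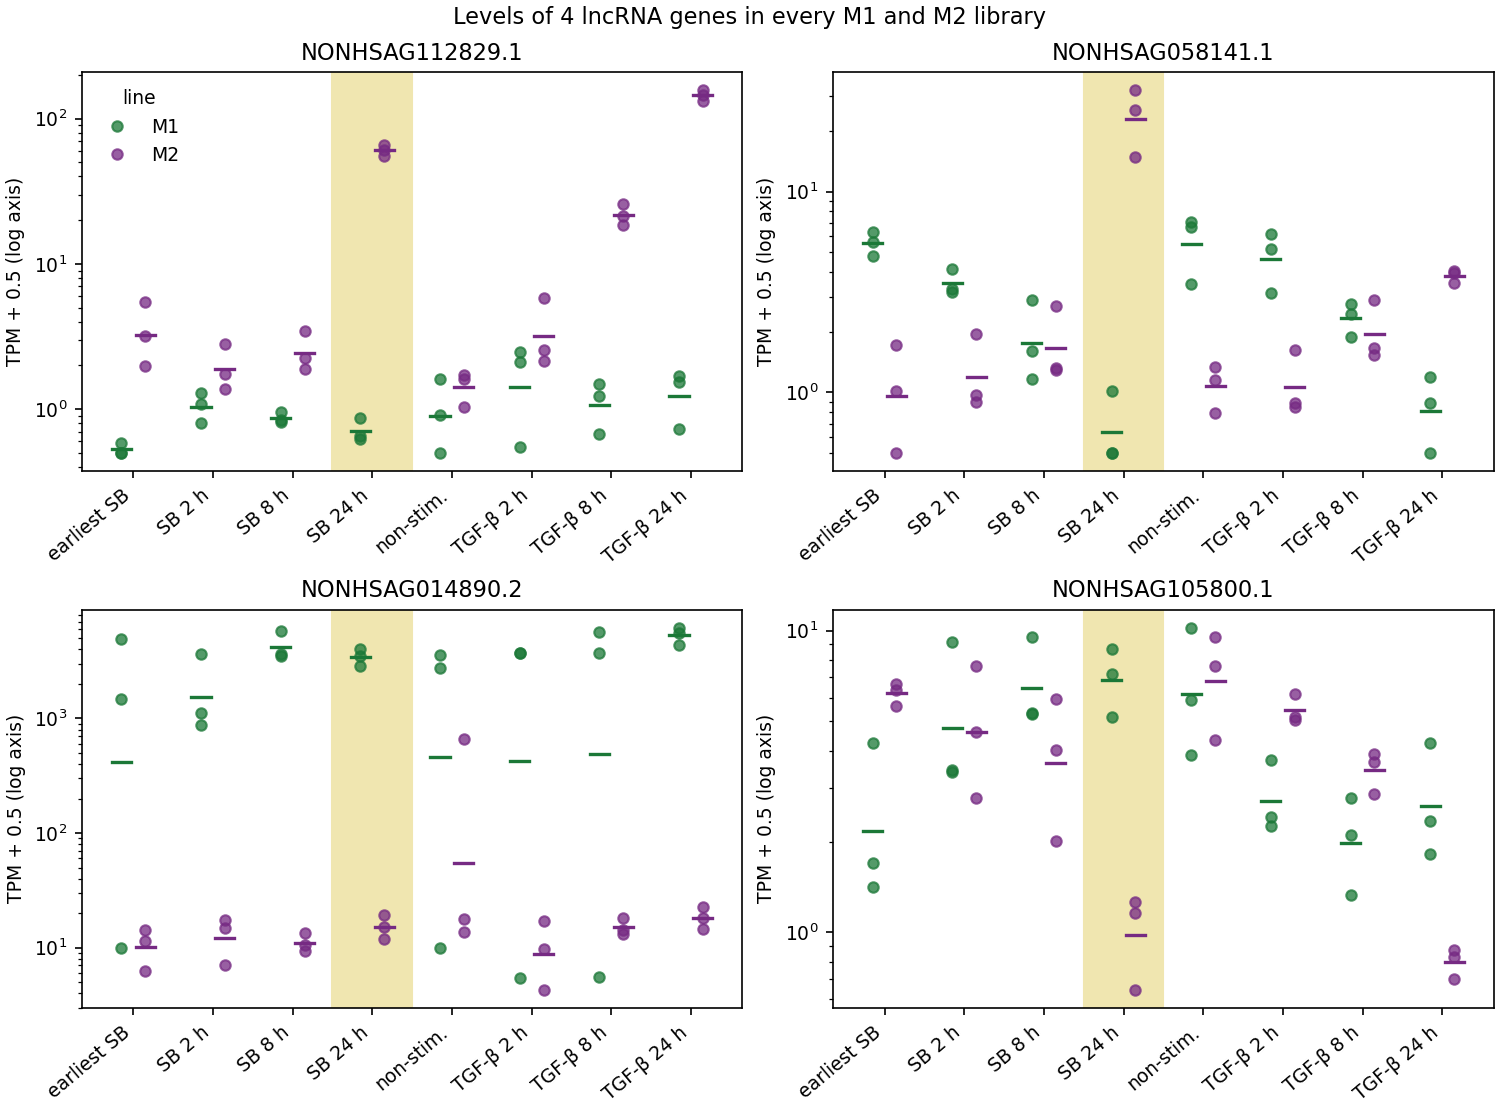
TPM + 0.5 on a log axis of the 4 named genes in every M1 (green) and M2 (purple) library by condition (x axis); each point is a library, bars are means of the 3 libraries on the log scale, and the shaded band is 24 h of SB431542. NONHSAG112829.1 and NONHSAG058141.1 reach their highest SB431542 levels in M2 at 24 h, NONHSAG014890.2 splits M1 libraries into those of at least 874 TPM and those of at most 9.40, and NONHSAG105800.1 is lowest in M2 at 24 h with either agent.

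The line difference, M2 minus M1, changed between the earliest and the 24 h SB431542 libraries for many genes. It became more positive, or moved towards M2, in 334 genes (1.53% of those tested) and more negative, or towards M1, in 3891 (17.8%) as deposited, and in 1651 (7.55%) and 1116 (5.11%) after rescaling, by limma at an adjusted p under 0.05. Under both scalings the counts were 324 (1.48%) and 1116 (5.11%), and under all 4 they were 302 and 707 of the 21857 genes tested. The count thus depended on the scaling, and its direction turned with it: 7.91% of the calls were towards M2 as deposited and 59.7% after rescaling.

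M2 moved further than M1 in the genes called under both scalings. For the 324 genes that moved towards M2, the median change from the earliest libraries to 24 h was -0.59 in M1 and 0.80 in M2 as deposited, and -0.57 and 1.68 after rescaling. For the 1116 that moved towards M1 it was 0.43 in M1 and -1.54 in M2, and 0.40 and -0.96 after rescaling. Over all tested genes the median change was 0 in M1 under either scaling, and -0.48 in M2 as deposited and -0.06 after rescaling. Of the 672 genes higher in M2 at 24 h, 223 (33.2%) had moved towards M2 and for 449 no change was called. Of the 5006 lower genes, 922 (18.4%) had moved towards M1, 11 towards M2, and for 4073 no change was called.

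A direction opposite to that of the earliest libraries was called in 20 of the higher and 31 of the lower genes. The choice of genes with opposite calls at the 2 times fixed that their line difference changed, so the changes given here are descriptions. Genes of this kind are described by rank of the change, without identifiers, among those that met the naming rule (13 higher, 19 lower). The third of the higher ones had 90.8, 104 and 97.1 TPM in M1 and 20.5, 15.03 and 20.8 in M2 at the earliest libraries, and 9.93, 10.6 and 10.3 in M1 and 156, 147 and 117 in M2 at 24 h. The lines exchanged order without overlap, a change of 6.05 (SE 0.31). The gene of rank 7 was among the abundant ones: it fell from 3237 ± 129 to 1517 ± 102 TPM in M1 and rose from 548 ± 50.5 to 1902 ± 112 in M2 (SD, n = 3), a change of 2.89 (SE 0.17). Its difference at 24 h was only 0.33 as deposited (limma adjusted p = 0.0229) and 1.56 after rescaling. The fourth of the lower ones changed in M2: it had 97.7 ± 8.27 and 104 ± 5.77 TPM in M1 at the earliest time and at 24 h, and 264 ± 42.0 and 29.2 ± 6.05 in M2, a change of -3.25 (SE 0.27).

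The line difference under the inhibitor was compared with that under the ligand at the same time. The interaction was called for 283 genes (1.29%) towards M2 under SB431542 and 183 (0.837%) towards M1 as deposited, by limma at an adjusted p under 0.05, out of 2431 at an unadjusted p under 0.05. After rescaling the counts were 626 (2.86%) and 495 (2.26%), and under both scalings 276 (1.26%) and 178 (0.814%). Under all 4 they were 157 and 146 of the 21857 genes tested. Of the 672 genes higher in M2 at 24 h of SB431542, 111 had a larger difference there than under TGF-β, 12 a smaller one, and for 549 (81.7%) no difference between the agents was called. Of the 5006 lower genes the counts were 85, 20 and 4901 (97.9%). A missing call does not show that the line difference was the same with both agents.

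Genes for which the agent mattered included some with very different levels. They were picked here by rank of the interaction. The first of the higher ones had 0, 0 and 0.305 TPM in M1 and 8.80, 7.52 and 7.03 in M2 at 24 h of SB431542, and 1.78, 1.58 and 0.593 in M1 and 509, 554 and 583 in M2 at 24 h of TGF-β. M2 was above M1 with either agent, and the difference was smaller under the inhibitor by 4.49 (SE 0.49, limma adjusted p = 2.41e-08). The gene of rank 6 showed the opposite. It had 1.37 ± 0.252 TPM in M1 and 22.6 ± 1.23 in M2 under SB431542, and 0.0751 ± 0.130 and 0.121 ± 0.0577 under TGF-β (SD, n = 3). The line difference was thus seen under the inhibitor, and both lines were low with the ligand (interaction 3.5, SE 0.39, limma adjusted p = 4.58e-08). Among the lower genes, that of rank 2 had 52.6, 44.4 and 56.7 TPM in M1 and 1.79, 1.45 and 1.73 in M2 under SB431542. Its levels under TGF-β were 2.81 ± 0.384 and 0.775 ± 0.241 (SD, n = 3), and the difference was larger under the inhibitor (interaction -3.19, SE 0.44, limma adjusted p = 4.63e-06). M1 held the high level of this gene under the inhibitor, and at the earliest libraries it had been at 9.77 ± 2.15 TPM in M1 and 5.11 ± 1.49 in M2.

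**Figure D4:**
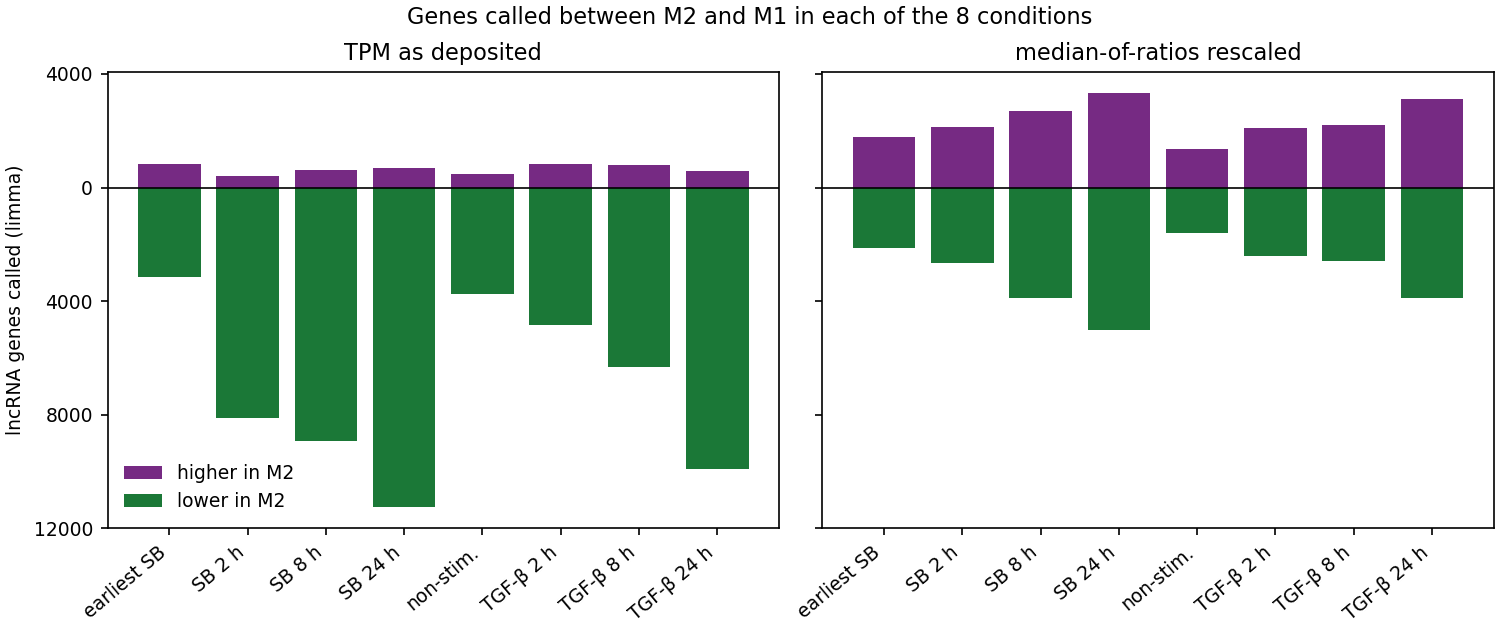
Number of lncRNA genes called between M2 and M1 (y axis) in each of the 8 conditions (x axis), higher in M2 above 0 and lower in M2 below 0, with deposited TPM on the left and rescaled values on the right. The bars at 24 h of SB431542 reach 672 higher and 11237 lower with deposited TPM and 3333 and 5006 with rescaled values, and their total exceeds that of each other condition on both sides of the plot.

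The 24 h SB431542 comparison gave the most calls of the 8 line comparisons on deposited and on rescaled values. Each compared libraries of its own, but all shared the same estimate of each gene's spread. A gene of small spread was therefore more easily called in all of them. On deposited TPM the number of genes lower in M2 grew with time under the inhibitor, from 3138 (14.4% of those tested) at the earliest libraries to 8121 (37.2%) at 2 h and 8919 (40.8%) at 8 h, and the higher genes numbered 838 (3.83%), 407 (1.86%) and 619 (2.83%). In the TGF-β arm the lower genes numbered 3745 (17.1%) in non-stimulated cells, 4830 (22.1%) at 2 h, 6332 (29%) at 8 h and 9921 (45.4%) at 24 h, and the higher ones 464 (2.12%), 828 (3.79%), 804 (3.68%) and 581 (2.66%). The higher genes showed no such growth on this scale. With rescaled values the inhibitor gave 1777 higher (8.13%) and 2146 lower (9.82%) genes at the earliest libraries, 2125 (9.72%) and 2640 (12.1%) at 2 h, and 2688 (12.3%) and 3898 (17.8%) at 8 h. The TGF-β arm then gave 1367 (6.25%) and 1584 (7.25%) without stimulation, 2097 (9.59%) and 2405 (11%) at 2 h, 2214 (10.1%) and 2574 (11.8%) at 8 h, and 3114 (14.2%) and 3888 (17.8%) at 24 h. The number of lower genes thus grew with time with either agent and under each of these scalings.

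Calls at 24 h of SB431542 were shared in part with each of the other comparisons, of which 5 are given. The part of the common spread estimate in this sharing was not tested. Under both scalings 352 genes were higher in M2 at 24 h with each agent, which is 52.4% of the SB431542 list and 60.6% of the TGF-β list, and 2439 were lower (48.7% and 62.9%); the TGF-β lists held 2.66% and 17.7% of the genes tested. With 8 h of SB431542 the shared genes were 336 higher (50% and 54.4%) and 2457 lower (49.1% and 63.0%), where the 8 h lists held 2.83% and 17.8% of the genes tested. With 8 h of TGF-β they were 343 higher (51.0% and 43.0%) and 1418 lower (28.3% and 55.1%), from lists of 3.65% and 11.8%. Of the higher genes, the 24 h TGF-β and both 8 h comparisons each shared at least 50%. With the earliest SB431542 libraries they were 275 higher (40.9% and 33.1%) and 1248 lower (24.9% and 58.2%), from lists of 3.8% and 9.81%. With non-stimulated cells they were 181 higher (26.9% and 39.6%) and 753 lower (15.04% and 47.5%), from lists of 2.09% and 7.25%. At 24 h of TGF-β, 5 of the higher and 1 of the lower genes were called in the opposite direction, against 17 and 19 in non-stimulated cells.

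A smaller group differed between the lines in one direction in all 8 conditions. Of the 21857 genes tested, it held 81 higher in M2 and 934 lower as deposited, and 536 and 206 after rescaling. Under both scalings the counts were 81 and 206, and under all 4 they were 53 and 140. The 8 comparisons shared an estimate of each gene's spread, and its part in such recurrence was not tested. The 81 were 12.1% of the genes higher at 24 h of SB431542, and the 206 were 4.12% of the lower ones. The higher genes were the more abundant: their median levels at 24 h of SB431542 were 18.1 TPM in M1 and 76.6 in M2, against 4.65 and 0.313 for the lower genes. Their median difference was 1.67 at 24 h of SB431542, 1.39 at the earliest libraries, 1.16 in non-stimulated cells and 1.17 at 24 h of TGF-β. For the lower genes these medians were -2.28, -1.59, -1.76 and -2.20. At the other end, 129 of the higher genes (19.2%) and 1088 of the lower genes (21.7%) were called in that direction at 24 h of SB431542 and in none of the other 7 conditions; for these, a difference from every other condition was not tested.

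Examples of the lasting differences were taken by rank of the 24 h difference among genes that met the naming rule. The changes given for them include the 24 h values that set this rank, so they are descriptions. The fifth of the higher genes had 8.30, 9.76 and 12.5 TPM in M1 and 243, 216 and 192 in M2 at 24 h of SB431542, and 5.14 ± 0.391 and 37.6 ± 1.75 (SD, n = 3) at the earliest libraries. M2 was above M1 in every one of these libraries, and the difference widened from 2.76 to 4.36 on the log2 scale (change 1.6, SE 0.33, limma adjusted p = 0.000527). The second of the lower genes had 21.4, 20.5 and 25.7 TPM in M1 and 0.0828, 0 and 0.405 in M2 at 24 h, and 15.5 ± 0.940 and 0.0681 ± 0.0598 at the earliest libraries. It was close to absent from M2 at both times, with differences of -5.16 and -4.82 that were not called different from each other (limma adjusted p = 0.5). The fourth of the lower genes narrowed its gap: M1 went from 205 ± 31.7 TPM at the earliest libraries to 24.4 ± 2.69 at 24 h, M2 was at 0.488 ± 0.442 and 0.596 ± 0.306 (SD, n = 3), and the difference went from -7.81 to -4.54 (change 3.27, SE 0.50, limma adjusted p = 8.88e-06).

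**Figure D5:**
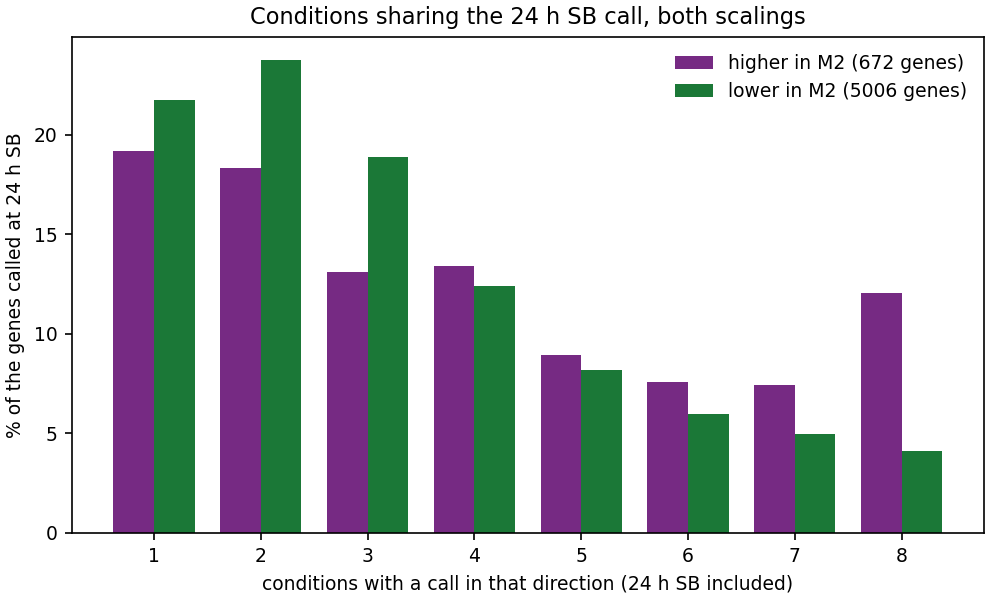
Share of the genes called at 24 h of SB431542 under both scalings (y axis, percent) by the number of conditions, out of 8 and counting 24 h of SB431542 itself, in which the gene was called in that direction (x axis), for the 672 higher (purple) and 5006 lower (green) genes. The share called in all 8 is 12.1% of the higher and 4.12% of the lower genes, and the share called in 1 is 19.2% and 21.7%.

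Gene groups were formed by comparing libraries that the 24 h SB431542 comparison did not use, by calls under both scalings, and followed in it. For groups from M1 and M2 the calls came from the same fit and spread estimate, so they were not independent of the 24 h calls. Of the 457 genes higher in M2 than in M1 without stimulation, 181 (39.6%) were higher at 24 h of SB431542 and 19 (4.16%) lower, with a median difference of 0.22 as deposited and 1.27 after rescaling; all tested genes stood at 3.07%, 22.9%, -0.78 and -0.24. Of the 1584 genes lower in M2 without stimulation, 17 (1.07%) were higher and 753 (47.5%) lower, with medians of -1.33 and -0.57.

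Genes that answered TGF-β within a line, called against non-stimulated cells of that line, were also followed. Of the 136 genes (0.622% of those tested) that rose in M1 at 2 h of TGF-β, 18 (13.2%) were higher in M2 at 24 h of SB431542 and 20 (14.7%) lower, and of the 57 (0.261%) that fell, 6 (10.5%) were higher and 24 (42.1%) lower. Of the 126 genes (0.576%) that rose in M2 at 2 h, 28 (22.2%) were higher and 12 (9.52%) lower, with medians of -0.03 as deposited and 0.38 after rescaling. Of the 69 (0.316%) that fell in M2 at 2 h, 3 (4.35%) were higher and 42 (60.9%) lower, with medians of -1.65 and -1.09. Of the 528 genes (2.42%) that rose in M1 at 24 h of TGF-β, 60 (11.4%) were higher and 96 (18.2%) lower, and of the 1116 (5.11%) that fell, 51 (4.57%) were higher and 360 (32.3%) lower. Every one of these 6 groups, risen or fallen, held a larger share of higher calls than the 3.07% of all tested genes, and those that had fallen also held a larger share of lower calls than the 22.9% of all; no test of a difference between the groups was made. The groups differ in level, from a median of 0.194 TPM for genes that rose in M1 at 2 h to 7.30 TPM for those that fell in M1 at 24 h. The parts of level and of the common spread estimate in these shares were not tested.

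Genes that set MDA-MB-231 apart from M1 without stimulation split unevenly. Of the 1389 genes (6.35% of those tested here) higher in MDA-MB-231, 161 (11.6%) were higher in M2 at 24 h of SB431542 and 145 (10.4%) lower. Of the 5492 (25.1%) lower in MDA-MB-231, 163 (2.97%) were higher in M2 and 2259 (41.1%) lower, with a median difference of -1.23 as deposited and -0.55 after rescaling. Of the genes higher in the cancer line, the median difference of M2 from M1 was -0.34 as deposited and 0.28 after rescaling, so its sign depended on the scaling. All tested genes stood at 3.07% higher and 22.9% lower in M2, so the 2.97% was close to the share of all. M1 was the reference line of both comparisons. Median levels were 1.24 TPM for the first group and 1.73 for the second, against 0.852 for all tested genes. The parts of the common reference and of level were not tested.

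Some genes were listed at 0 in every library of a line at 24 h of SB431542 and at 1 TPM or more in every library of the other. There were 12 such genes in M2, with means of 1.06 to 3.62 TPM, and 95 in M1, with means of 1.13 to 11.4 TPM and a median of 1.88. Nearly all were low, with 1 of the 95 and none of the 12 at a mean of 10 TPM or more. Of the 12 seen in M2, 1 was at 0 in all 24 M1 libraries and 9 were at 0 in the 3 MDA-MB-231 libraries at 24 h of SB431542. Of the 95 seen in M1, 0 were at 0 in all 24 M2 libraries and 9 stayed below 0.5 TPM in all of them, so most exceeded that level in some M2 library of another condition. A value of 0 in a table without counts can be a failed estimate, and the M2 libraries had more of them, with 5191 ± 615 of the tested genes at 0 against 2225 ± 258 in M1 (SD, n = 3).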

How the data were processed

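Total RNA was isolated with TRIzol and sequenced on an Illumina platform, per the labels' protocols. Per the submitters' processing notes, the build was GRCh38 and the tools were StringTie 1.3.6, HISAT2 2.2.0, cutadapt 2.10 and FastQC. Their settings, the annotation and the strandedness are not given in the sources used. In the table the authors deposited, 96411 lncRNA genes have TPM values in 72 columns, scaled over these genes alone. TPM keep no depth, so no counting error or detection limit is given. As strandedness is not stated, overlapping and antisense genes cannot be told apart, and near-identical genes may share reads. Protein-coding genes were not analysed here.

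A gene was tested where 3 or more of the 48 M1 and M2 libraries had 0.5 TPM or more. Values entered limma 3.58.1 as log2(TPM + 0.5), with lmFit, contrasts.fit and a trended eBayes in R 4.3.3, and all 16 groups of 3 shared one fit without covariates. The files were read by data.table (version 1.17.8). A difference on this scale understates changes of low genes. Tests were two-sided, with Benjamini-Hochberg adjustment over the 21857 genes and calls at an adjusted p under 0.05. Interactions were contrasts in the same fit. Single values per library were compared by an exact permutation test. Replicates are called biological in the design text, but separate cultures are not stated, and the p-values measure the spread between these libraries. It also speaks of 36 samples, and 72 are listed. No 2 columns were identical.

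The alternatives were median-of-ratios rescaling, a scaling total that omits the 10 most abundant genes, quantile normalization, pseudocounts of 0.1 and 1, testing every gene or only those with a mean of 1 TPM or more, a replicate block, only the groups compared, and each library left out. Named genes were, per direction, the gene of largest difference among those called under both scalings with no overlap and a mean of at least 5 TPM, and, of those opposite at the earliest SB431542 libraries, that of the largest interaction. Gene groups use calls under both scalings; the one for MDA-MB-231 comes from a fit of its own. The comparison, lists and rules were chosen with earlier results of these data known. On simulated data for the 24 h SB431542 comparison with 21857 genes, 200 were changed, drawn from those with a mean of at least 1 TPM. Calls were made for 2.99% of the genes with a log2 change of 0.5, for 31.3% at a change of 1 and for 89.4% at 2, with 8 false calls. No scaling shift was simulated, and far more genes were called in the data, 11909 as deposited. These rates therefore do not carry over to the comparison reported.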

Additional observations from a re-analysis of the deposited data

Results flagged for a closer look

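These results differed between conditions by a test of the difference itself, the interaction in the limma fit. The line difference at 24 h of SB431542 differed from that at the earliest SB431542 libraries for 4225 genes, and from that at 24 h of TGF-β for 466 genes, both on deposited TPM. Of the named genes, NONHSAG112829.1 had a line difference larger by 3.80 on the log2 scale at 24 h of SB431542 than at the earliest libraries. For NONHSAG058141.1 the line difference was higher by 7.71 than at the earliest libraries and by 2.94 than at 24 h of TGF-β. For NONHSAG105800.1 the change from the earliest libraries was -4.33. These last 2 genes were chosen for a turned direction since the earliest libraries. All named genes were chosen by 24 h SB431542 values that enter these differences, so the values given for them are descriptions.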

How the results depend on the processing

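The scaling moved the counts most. After median-of-ratios rescaling the change since the earliest SB431542 libraries was called for 2767 genes in place of 4225, and the difference from 24 h of TGF-β for 1121 in place of 466. With a scaling total that omits the 10 most abundant genes the first of these was 1335. With quantile normalization the line difference at 24 h of SB431542 was called for 6286 genes (3012 higher in M2, 3274 lower) in place of 11909, the 2 interactions for 2258 and 896, and 571 genes were called in one direction in all 8 conditions in place of 1015. The difference in genes at 0.5 TPM or more, -6354.3, was -6001.3 at 0.1 TPM, -5307.3 at 1 TPM and -2780 after rescaling. Leaving out each library in turn gave 10458 to 10890 genes for the line difference, 2827 to 4515 for the change since the earliest libraries, 322 to 432 for the difference from TGF-β, 785 to 1185 for all 8 conditions, and -6409.8 to -6293.3 for the difference in genes at 0.5 TPM or more. The 4 named genes kept their direction and their call under the 9 other settings and under each of 6 libraries left out, with the highest limma adjusted p, 0.0112, for NONHSAG014890.2 after rescaling. Their choice already required a call under deposited and rescaled values, and rescaling is among these settings. The other settings reuse the libraries that chose the genes, so this is no independent support. Across genes the replicate numbers hardly paired the libraries. Correlations of same-numbered deviations were 0.0235, 0.00154 and 0.0649, against at most 0.0426, 0.00278 and -0.0196 for other numbers. Some abundant genes did follow the number at 24 h of SB431542. That of rank 14 had 4212.8, 3832.5 and 64.9 TPM in M1 and 4816.5, 6464.5 and 86.3 in M2. Those of rank 18, 20 and 36 were also low in replicate 3 of both lines. The genes of rank 14, 18, 20 and 36 carry consecutive identifier numbers, and their values ran in parallel over the 6 libraries. They may therefore not be separate cases, and whether they share reads was not tested. With the replicate block the 4 counts were 11887, 4251, 462 and 1032. TPM keep no depth, so what depth limits could not be measured.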

Other observations

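Identifiers with consecutive numbers were counted as neighbours; their genomic order was not established. Among the 8558 pairs of tested genes with consecutive numbers, the first gene was called higher in M2 at 24 h of SB431542 under both scalings in 215, and in 25 of these (11.6%) so was the next, where 2.31% of all pairs had a next gene called higher. For lower genes the count was 819 of 2125 (38.5%), where 25.1% of all pairs had a next gene called lower. The longest runs of consecutive numbers called in one direction were 6 higher and 11 lower genes. No test of these shares was made, and overlapping genes that share reads would count as neighbours here.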
